A study of Mus musculus with 12 samples.

Results

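A set of 6 genes that link mechanical load to the chondrocyte was followed here across all 12 libraries of the Runx3 RNA-seq experiment. They were the channel genes Trpv4, Piezo1 and Piezo2, the polycystin genes Pkd1 and Pkd2, and Ift88, a gene needed to build the primary cilium. They were found by symbol, and the 6 symbols gave 6 of the 17536 genes in the deposited values. The RNA came from articular chondrocytes of 5-day-old mice, labelled C57BL/6 in the sample records and given as C57BL/6J in the study's methods. Every mouse of either genotype carried floxed Runx3 alleles. R3-Cntl mice were Runx3 fl/fl littermates without Cre, and R3-cKO mice were Col2a1-Cre; Runx3 fl/fl, in which Cre is driven by the Col2a1 promoter of chondrocytes. Superficial zone (SFZ) cells were released from the epiphyseal cartilage by trypsin and collagenase, and deep zone (DZ) cells by a further, longer collagenase digestion of what was left. The dissociated cells were kept as a monolayer. Each genotype and zone gave 3 libraries. The study describes SFZ and DZ cells of 3 individual littermate mice per genotype, so a mouse may have given both zones. The labels number the libraries and do not name mice. The main zone tests treat all libraries as independent, so their p-values measure the spread between libraries and take no account of shared mice. Fits with the library number as a block are given below. Zone and length of digestion cannot be told apart in this design.

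TRPV4 is a calcium-permeable cation channel that opens with osmotic change and cell deformation, and it is abundant in chondrocytes. PIEZO1 and PIEZO2 are large trimeric channels that open when the membrane is stretched. Polycystin-1, the product of Pkd1, is a large receptor-like membrane protein that assembles with polycystin-2, the channel subunit made from Pkd2, and part of both proteins sits in the membrane of the primary cilium, the single antenna-like organelle of most chondrocytes. IFT88 is a subunit of the IFT-B train that carries cargo up the cilium, and cells without it fail to form a normal one.

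Of the 6 genes 4 differed between SFZ and DZ cells, and not in a single direction, in a comparison in which 23.2% of all genes passed. Trpv4 was higher in DZ cells, at 78.8 ± 20.1 FPKM against 36.8 ± 16.1 in SFZ cells (SD, n = 6 each). Pkd2 was lower in DZ cells, at 20.1 ± 3.65 against 41.0 ± 6.00 FPKM, and Piezo1 was lower, at 40.9 ± 7.93 against 56.1 ± 4.09 FPKM. Pkd1 was lower by a smaller margin and lost its call under both other scalings tried, Piezo2 had a lower mean in DZ cells that did not pass the test, and Ift88 had nearly the same mean in both zones. No difference between R3-Cntl and R3-cKO passed the test for any of the 6 genes in either zone. FPKM relates the fragments of a gene to its transcript length and to the size of the library, so levels of different genes are compared here per length.

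In the 12 libraries the FPKM values summed to between 392241 and 429213, with 10720 to 11595 genes at 1 FPKM or more. The values are not counts, so the reads behind a value and its counting error are unknown. The 9 chondrocyte markers averaged at least 1 FPKM in every group and summed to 5230 to 15400 FPKM in SFZ libraries and 16100 to 35700 in DZ libraries. The 9 superficial zone markers summed to 193 to 1150 FPKM in SFZ and 4.33 to 19.9 in DZ libraries, with Cilp under 0.1 FPKM on average in both DZ groups, and the 7 deep zone markers to 443 to 650 in SFZ and 838 to 2260 in DZ libraries. The 8 macrophage markers also moved with zone, summing to 7.11 to 168 FPKM in SFZ and 3.71 to 22.7 in DZ libraries, as did the 5 tendon markers, at 665 to 1420 and 419 to 953 FPKM. The 7 endothelial markers were low but also moved with zone. They summed to 0.53 to 5.91 FPKM in SFZ and 0.05 to 0.37 in DZ libraries, without overlap. Of them, 0 of 7 averaged 1 FPKM in any group, and Cldn5 averaged under 0.1 FPKM in every group. The 7 skeletal muscle markers summed to 5.08 to 86.3 FPKM in SFZ and 6.11 to 21.7 in DZ libraries. The 8 cell cycle markers summed to 81.0 to 518 FPKM in SFZ and 78.8 to 407 in DZ libraries. The 5 measured erythroid markers summed to at most 0.28 FPKM. The part of these other cell types and of dividing cells in the zone differences below was not tested. In such bulk samples, fewer cells of a type and less RNA per cell cannot be told apart.

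Runx3, the targeted gene, was measured at 10.73, 5.98 and 6.65 FPKM in the R3-Cntl SFZ libraries and at 11.83, 9.07 and 3.42 in the R3-cKO SFZ libraries. In DZ cells it was at 12.67, 12.65 and 7.66 FPKM in R3-Cntl and at 15.95, 12.66 and 8.14 in R3-cKO. The genotypes overlapped in both zones and the R3-cKO means were not the lower ones, at 8.11 ± 4.29 against 7.79 ± 2.57 FPKM in SFZ cells and 12.2 ± 3.92 against 11.0 ± 2.89 in DZ cells (SD, n = 3). The values cover the whole transcript and do not show the floxed part by itself. R3-cKO therefore stands below for the libraries labelled so, and no direction drawn between genotypes rests on a measured loss of Runx3.

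On mm9, the build of the deposited values, GENCODE vM1 places Trpv4 at chr5:115072161-115108430 on the minus strand and Pkd2 on the same chromosome at chr5:104888469-104934838 on the plus strand. Piezo1, named Fam38a in that annotation, lies at chr8:125005598-125075229 on the minus strand. Pkd1 lies at chr17:24686895-24733459 and Ift88 at chr14:58042899-58136773, both on the plus strand. The longest annotated transcripts run from 3228 spliced bases in 16 exons for Trpv4 to 14170 bases in 46 exons for Pkd1. Ctu2 lies on the other strand and shares 2441 exonic bases with Piezo1, and Tsc2 shares 578 with Pkd1 in the same way. The sources used here do not say whether fragments were assigned by strand. Ctu2 was at 6.44 ± 1.21 FPKM in SFZ and 6.39 ± 1.15 in DZ cells, and Tsc2 at 16.4 ± 0.521 and 14.2 ± 0.979 (SD, n = 6), so the values of Piezo1 and Pkd1 are uncertain to the extent that such reads were shared.

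Because the mice were bred to lose a Runx factor, the 250 bases before the start site were searched for the letters of the Runx motif, TGTGGT or TGCGGT, on either strand. RefSeq promoters (GRCm38.p6) were at hand for 5 of the 6 genes, all but Piezo2, and each of the 5 had 1 exact match on its mm9 chromosome. The letters occurred once before Ift88 and once before Pkd1, in both cases on the reverse strand. They were not found in the windows of Trpv4, Piezo1 and Pkd2. Among all 32851 RefSeq promoters 18.6% hold them in a window of this length. The match before Ift88 begins 78 bases upstream of the start, in chr14:58042800-58042865, and the match before Pkd1 begins 249 bases upstream, at the far edge of the window, in chr17:24686645-24686681. Both stretches are shown 5′ to 3′ on the strand of the gene, with the matched letters, as they read on that strand, in capitals.
Ift88: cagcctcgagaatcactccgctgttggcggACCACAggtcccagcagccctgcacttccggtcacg
Pkd1: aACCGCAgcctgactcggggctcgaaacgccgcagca
The next pair are the last 130 bases before the start sites of Trpv4 (chr5:115108431-115108560, minus strand) and Pkd2 (chr5:104888346-104888475, plus strand), the genes with the largest zone differences of the 6 in each direction. They are shown for their base composition, since the 250-base windows were 72.0% G or C for Trpv4 and 52.8% for Pkd2. The windows of Piezo1, Pkd1 and Ift88 were 74.0, 67.2 and 60.4% G or C.
Trpv4: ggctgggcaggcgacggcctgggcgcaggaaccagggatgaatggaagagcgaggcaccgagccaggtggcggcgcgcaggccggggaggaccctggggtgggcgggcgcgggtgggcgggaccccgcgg
Pkd2: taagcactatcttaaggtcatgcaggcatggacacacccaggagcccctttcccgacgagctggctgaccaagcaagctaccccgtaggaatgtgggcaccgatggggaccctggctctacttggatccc
The other motif searched, the X-box half-site GTTGCC or GTTACC of RFX factors on either strand, was found in none of the 5 windows and in 15.7% of all promoters. A match describes letters and not a bound site, and its absence describes these windows alone.

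**Figure D1:**
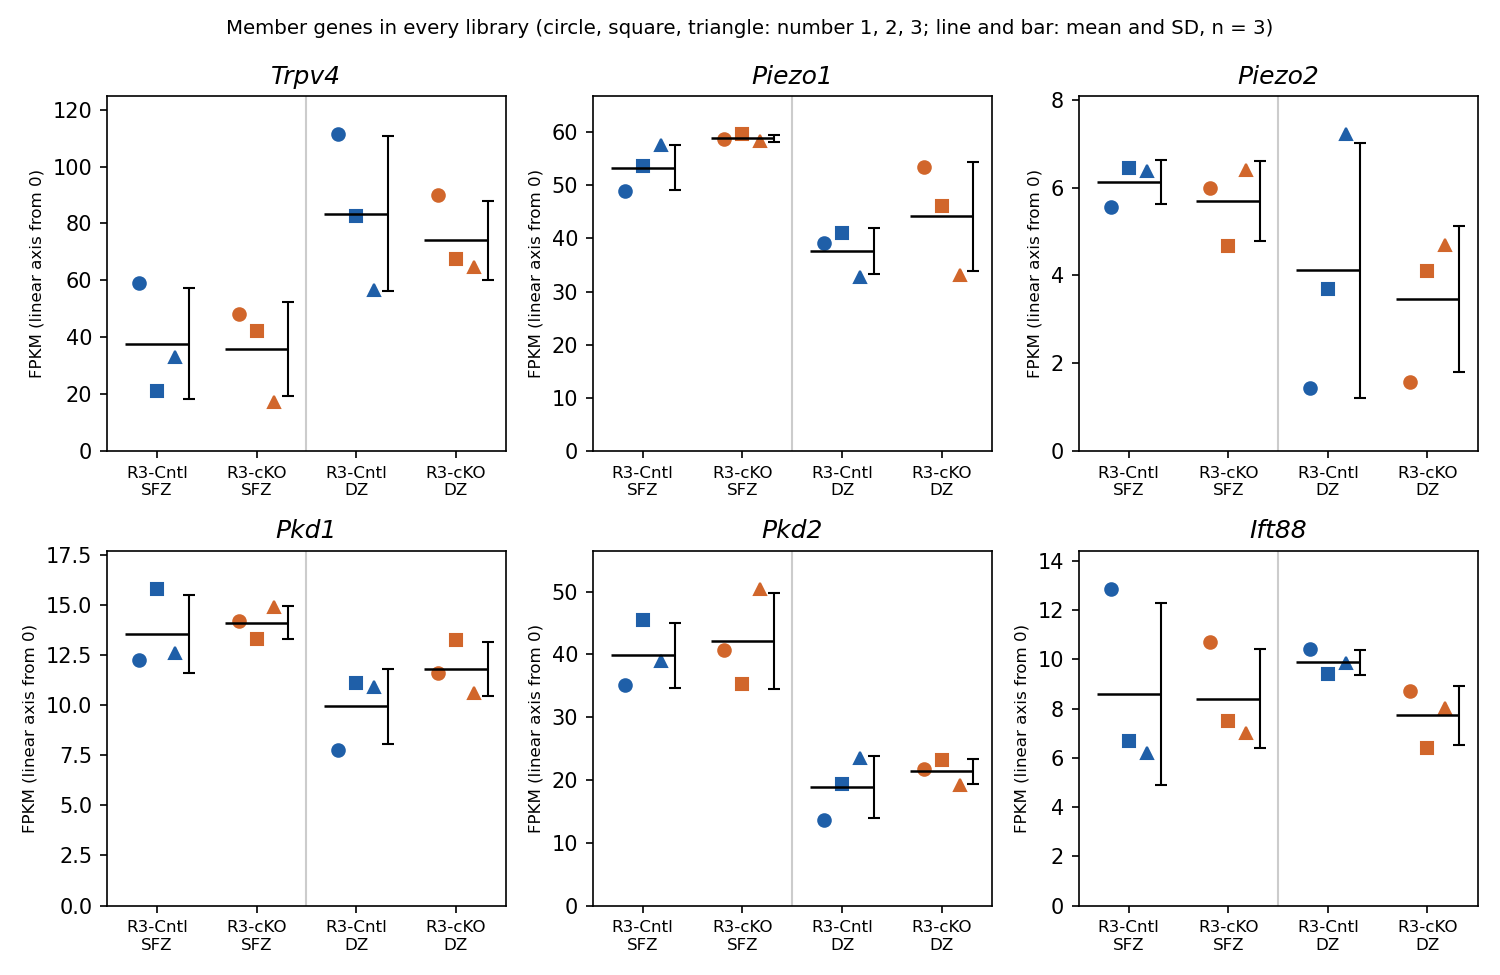
FPKM of the 6 genes (vertical axes, linear from 0) in each of the 12 libraries, by genotype and zone, with the mean as a line and the SD as a bar (n = 3). All 6 DZ libraries lie below all 6 SFZ libraries for Pkd2, and 5 of 6 DZ libraries lie above all SFZ libraries for Trpv4.

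Trpv4, the osmosensitive channel, was at 59.06, 21.11 and 33.05 FPKM in the R3-Cntl SFZ libraries and at 48.12, 42.18 and 17.20 in the R3-cKO SFZ libraries. In DZ cells it was at 111.27, 82.49 and 56.64 FPKM in R3-Cntl and at 90.03, 67.51 and 64.63 in R3-cKO. Of the DZ libraries, 5 were above every SFZ library and the remaining one, R3-Cntl DZ 3, fell just under the highest SFZ library, R3-Cntl SFZ 1. Averaged over both genotypes the level was 2.14-fold higher in DZ cells. On the log2(FPKM + 1) scale used for every fitted difference, which understates the change of low genes, this was a difference of 1.16 (SE 0.29, 95% interval 0.52 to 1.81, adjusted p = 0.0168 by limma with Benjamini-Hochberg adjustment). The exact permutation test of 6 against 6 libraries gave p = 0.00433. Of all 11765 genes tested, 99.2% had a lower zone difference than Trpv4.

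Of the 6 genes Trpv4 also varied most between SFZ libraries, with a coefficient of variation of 43.8% over 6 SFZ libraries against 7.29% for Piezo1. Between DZ libraries Piezo2 varied most of the 6, at 56.7% against 25.5% for Trpv4. Libraries of number 1 were the highest for Trpv4 in each of the 4 groups. The zone difference had the same direction within each genotype, at 1.19 (SE 0.40) in R3-Cntl and 1.14 (SE 0.39) in R3-cKO. Neither passed the adjusted threshold in 3 against 3 libraries (adjusted p = 0.125 and 0.282 by limma). The R3-cKO groups did not overlap, as for 21.0% of all genes.

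Piezo1, the stretch-activated channel of many non-neuronal cells, was at 48.90, 53.64 and 57.51 FPKM in R3-Cntl SFZ and at 58.75, 59.57 and 58.29 in R3-cKO SFZ libraries. In DZ cells it was at 39.06, 41.04 and 32.74 FPKM in R3-Cntl and at 53.43, 46.02 and 33.06 in R3-cKO. The SFZ libraries lay close together and 5 of 6 DZ libraries were below all of them, the exception being R3-cKO DZ 1. The fitted zone difference was -0.46 (SE 0.11, 95% interval -0.70 to -0.23, adjusted p = 0.0119 by limma; exact permutation p = 0.00433), a level 1.37-fold higher in SFZ cells. It was -0.50 (SE 0.13) in R3-Cntl and -0.43 (SE 0.19) in R3-cKO, and neither passed (adjusted p = 0.0854 and 0.367 by limma). The zones did not overlap within either genotype, as for 32.4% of all genes in R3-Cntl and 21.0% in R3-cKO.

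Piezo2, the paralogue best known from touch-sensing neurons, lies at chr18:63169867-63546837 on the minus strand of mm9, under the older name Fam38b. It was the lowest of the 6 genes on average, at 4.85 ± 1.88 FPKM over all libraries (SD, n = 12). It was at 5.55, 6.45 and 6.38 FPKM in R3-Cntl SFZ and at 6.00, 4.66 and 6.40 in R3-cKO SFZ libraries, and at 1.44, 3.69 and 7.21 in R3-Cntl DZ and 1.57, 4.11 and 4.70 in R3-cKO DZ libraries. The SFZ values were narrow and the DZ values wide, with R3-Cntl DZ 3 the highest library of all and both DZ libraries of number 1 the lowest. The difference of -0.65 (SE 0.27, 95% interval -1.25 to -0.06) did not pass after adjustment (adjusted p = 0.105 by limma), while the exact permutation test of the single gene gave p = 0.0411. Without R3-Cntl DZ 3 the difference was -0.84 and passed (adjusted p = 0.0293), so this 1 library decides the call.

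Pkd2, the channel subunit of the polycystin complex, was at 35.17, 45.48 and 38.88 FPKM in R3-Cntl SFZ and at 40.73, 35.26 and 50.41 in R3-cKO SFZ libraries. In DZ cells it was at 13.66, 19.28 and 23.53 FPKM in R3-Cntl and at 21.67, 23.15 and 19.21 in R3-cKO. The zones were fully apart, and the highest DZ library was well under the lowest SFZ library. The level was 2.04-fold higher in SFZ cells and the fitted difference was -1.0 (SE 0.13, 95% interval -1.29 to -0.71, adjusted p = 0.00101 by limma). The exact permutation p of 0.00216 is the smallest that 6 against 6 libraries can give. Only 4.25% of the genes tested had a lower zone difference.

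Pkd1, which encodes the large receptor-like partner, was at 12.27, 15.82 and 12.62 FPKM in R3-Cntl SFZ, at 14.21, 13.30 and 14.91 in R3-cKO SFZ, at 7.79, 11.14 and 10.94 in R3-Cntl DZ and at 11.61, 13.26 and 10.60 in R3-cKO DZ libraries. In 5 of 6 DZ libraries Pkd1 was below all SFZ libraries, and R3-cKO DZ 2 was within their range. The difference of -0.33 (SE 0.10, adjusted p = 0.0392 by limma; exact permutation p = 0.00649) was small beside that of Pkd2. It was the least secure of the 4 differences that passed. It was -0.17 after quantile normalization and -0.19 with median-of-ratios size factors, without passing (adjusted p = 0.195 and 0.162).

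Ift88 was at 12.86, 6.70 and 6.20 FPKM in R3-Cntl SFZ, at 10.71, 7.48 and 7.01 in R3-cKO SFZ, at 10.41, 9.40 and 9.85 in R3-Cntl DZ and at 8.73, 6.41 and 8.03 in R3-cKO DZ libraries. The zones overlapped over most of their range and both SFZ libraries of number 1 were above every DZ library. The zone difference was 0.08 (SE 0.17, 95% interval -0.29 to 0.45, adjusted p = 0.774 by limma; exact permutation p = 0.675). The interval allows a change of up to 0.45 in this log2 unit in favour of DZ cells.

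Thus 4 of the 6 genes passed the adjusted threshold between zones, 1 higher and 3 lower in DZ cells. Of all genes tested 23.2% passed, 506 higher and 2219 lower. The zones did not overlap for 1 of the 6, Pkd2, against 11.3% of all genes. The median zone difference of all genes was -0.14. Relative to it, Trpv4 was higher by 1.30 and Ift88 by 0.22, and Pkd2, Piezo2, Piezo1 and Pkd1 stood at -0.86, -0.51, -0.32 and -0.19. The median moved to 0.04 after quantile normalization and to -0.01 with median-of-ratios size factors. With it the share of called genes that were higher in DZ cells went from 18.6% to 58.9 and 46.9%. The directions and calls of Trpv4, Piezo1 and Pkd2 held under both, and Pkd1 kept its direction alone.

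Within a single genotype, 0 of the 6 genes passed the adjusted threshold between zones. In R3-Cntl cells 1.24% of all genes did (140 of 11336), and in R3-cKO cells 0.0176% (2 of 11336). The lowest adjusted p of the 6 was that of Pkd2, 0.0594 in R3-Cntl and 0.11 in R3-cKO by limma, with differences of -1.07 (SE 0.21) and -0.94 (SE 0.16). At an unadjusted p under 0.05, 4 of the 6 genes were counted in R3-Cntl and 2 in R3-cKO, against 3102 and 1602 of all genes. The zones did not overlap for Piezo1, Pkd1 and Pkd2 in R3-Cntl, where 32.4% of all genes were so separated, and for Trpv4, Piezo1, Pkd1 and Pkd2 in R3-cKO, where 21.0% were. In R3-cKO cells, with the library number as a block, 352 genes passed in place of 2, and Pkd2 did not (adjusted p = 0.057). In R3-Cntl cells Pkd2 passed with the block (adjusted p = 0.0349 by limma), but the numbers do not pair the SFZ and DZ libraries of R3-Cntl, as described below. In 1 model of all 12 libraries Pkd2 passed in both genotypes (adjusted p = 0.0173 and 0.0462 by limma).

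**Figure D2:**
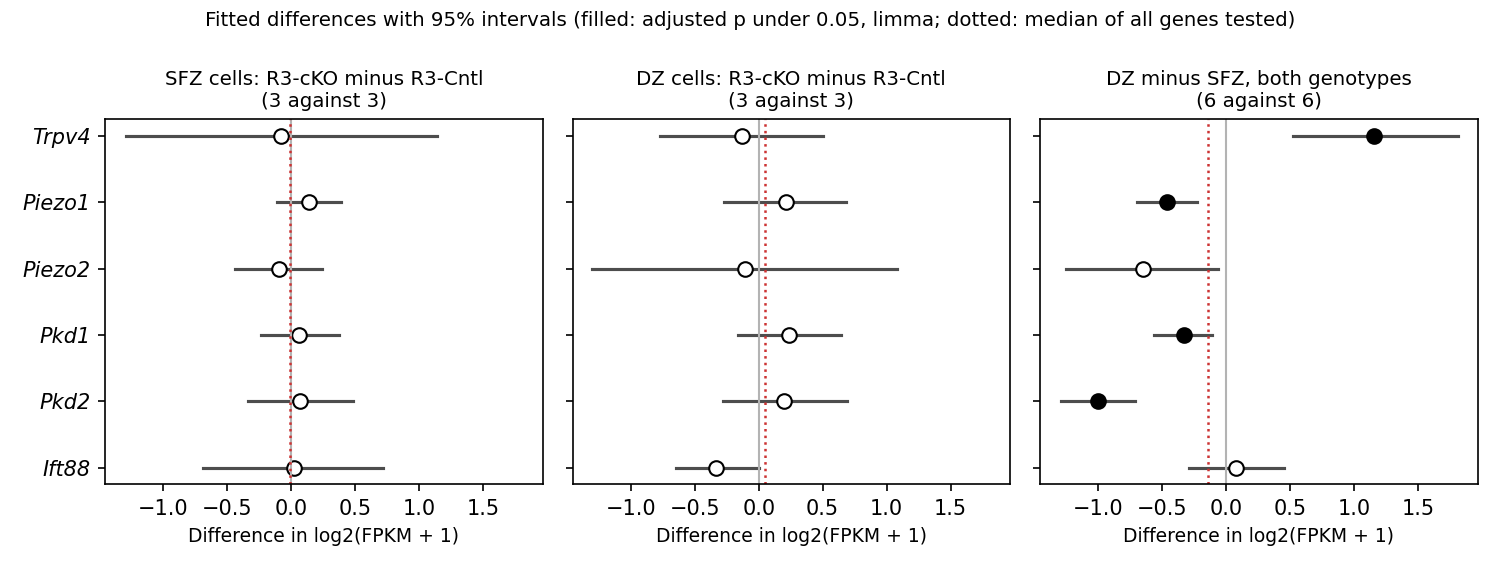
Fitted differences in log2(FPKM + 1) (horizontal axis) for the 6 genes, with 95% intervals, between genotypes in SFZ and DZ cells and between zones over both genotypes. The points of Trpv4, Piezo1, Pkd1 and Pkd2 are filled between zones, where the interval of Piezo2 also lies below 0, and no point is filled between genotypes, where the interval of Ift88 in DZ cells ends close to 0.

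The study asked what Runx3 does in each zone, so the same genes were compared between genotypes. In SFZ cells 0 of the 6 genes passed at an adjusted p or at an unadjusted p under 0.05, in a comparison in which 0% of 11537 genes passed after adjustment and 34 did before it (limma). Without any effect, a share of about 0.05 of all genes would meet the unadjusted threshold, which is more than these 34. The lack of calls in SFZ cells therefore does not show equal levels, and its cause was not tested. The fitted effects of R3-cKO lay between -0.10 for Piezo2 and 0.14 for Piezo1. The widest interval was that of Trpv4, from -1.29 to 1.14, so changes of Trpv4 within those bounds are not excluded by these libraries. For Piezo1 the 3 R3-cKO SFZ libraries were all above the 3 R3-Cntl SFZ libraries, by 0.14 (SE 0.10). Of all genes 2.40% were separated in this way, and the exact permutation p of 0.1 is the smallest that 3 against 3 libraries allow.

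In DZ cells, too, 0 of the 6 genes and 0% of 11091 genes passed after adjustment, with 404 genes at an unadjusted p under 0.05. Ift88 was one of the 404. Its 3 R3-cKO DZ libraries were below the 3 R3-Cntl DZ libraries, at 7.72 ± 1.19 against 9.89 ± 0.506 FPKM (SD, n = 3), a difference of -0.33 (SE 0.14, unadjusted p = 0.0494, adjusted p = 0.999 by limma; exact permutation p = 0.1). Of all genes 8.03% were separated between genotypes in DZ cells. The other effects were -0.13 (SE 0.26) for Trpv4, 0.21 (SE 0.20) for Piezo1, -0.11 (SE 0.50) for Piezo2, 0.24 (SE 0.17) for Pkd1 and 0.20 (SE 0.20) for Pkd2.

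An interaction term fitted to all 12 libraries asked if R3-cKO acted differently in SFZ and DZ cells. It passed for 0 of the 6 genes and for 0% of 11765 genes, with 99 genes and 0 of the 6 at an unadjusted p under 0.05 (limma). The largest interaction of the 6 was that of Ift88, -0.34 (SE 0.34, 95% interval -1.09 to 0.40), which ranged from -0.64 to -0.17 without 1 library, followed by Pkd1 at 0.17 (SE 0.21). The SFZ and DZ effects of Ift88, 0.02 and -0.33, are thus not shown to differ.

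The order of the levels changed with zone. In all 6 DZ libraries Trpv4 was the highest of the 6 genes, followed by Piezo1 and Pkd2, with Piezo2 the lowest. In SFZ libraries Piezo1 was the highest in 5 of 6, and Trpv4 only in R3-Cntl SFZ 1. Trpv4 and Pkd2 had no fixed order in SFZ cells, each above the other in 3 of 6 libraries. Pkd1 was above Ift88 in 5 of 6 libraries of each zone, and Ift88 above Piezo2 in 5 of 6 SFZ and 6 of 6 DZ libraries.

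Ratios between genes within a library do not depend on any factor that scales a whole library, though quantile normalization can change them. Trpv4 over Piezo1 ranged from 0.295 to 1.21 in SFZ libraries (median 0.641) and from 1.47 to 2.85 in DZ libraries (median 1.84), with no overlap. The mean log2 ratio was 1.67 higher in DZ cells, which is 3.17-fold (exact permutation p = 0.00216, adjusted p = 0.00432 over the 4 ratios tested). Trpv4, higher in DZ cells, and Piezo1, lower there, each contributed to it by construction. The polycystin ratio Pkd1 over Pkd2 was tight within each zone, 0.296 to 0.377 in SFZ and 0.465 to 0.578 in DZ libraries, and was 1.60-fold higher in DZ cells with no overlap (exact permutation p = 0.00216, adjusted p = 0.00432). Pkd2 thus changed by more than Pkd1 in the same libraries.

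Ift88 over Pkd2 was 0.139 to 0.366 in SFZ and 0.277 to 0.762 in DZ libraries, 2.19-fold higher in DZ cells (exact permutation p = 0.00433, adjusted p = 0.00577). Piezo1 over Piezo2 stayed within 8.32 to 12.8 in SFZ libraries, while in DZ libraries it spread from 4.54 to 34.0. The highest 2 of these, 27.1 and 34.0, were both of number 1, in R3-Cntl and in R3-cKO. The zone difference of this ratio was 0.38 on the log2 scale (exact permutation p = 0.411). It was 0.16 without R3-Cntl DZ 1, 0.09 without R3-cKO DZ 1 and 0.67 without R3-Cntl DZ 3.

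**Figure D3:**
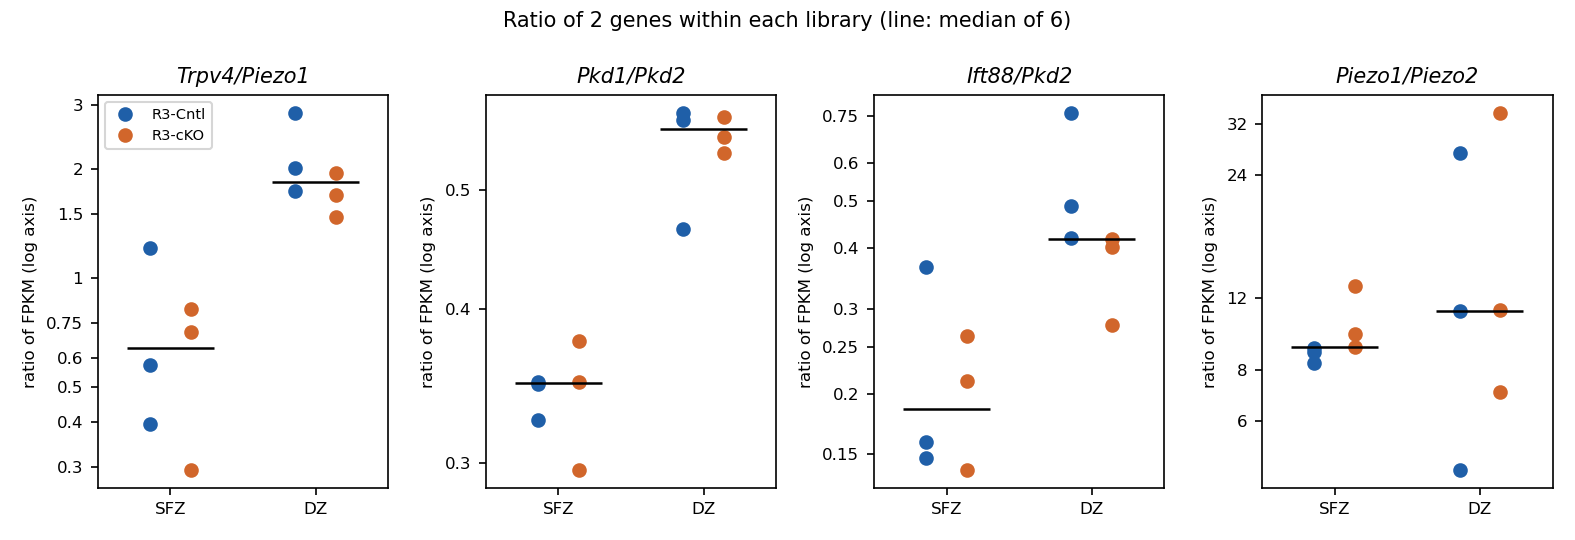
Ratio of 2 genes in each library (vertical axes, logarithmic) in SFZ and DZ cells, with R3-Cntl in blue, R3-cKO in orange and the median of 6 libraries as a line. Trpv4/Piezo1 and Pkd1/Pkd2 do not overlap between zones, and Piezo1/Piezo2 is spread over 4.54 to 34.0 in DZ libraries.

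Other channels and partners of these proteins were examined as lists. Of 25 other mechanically gated or volume-regulated channels 15 passed the filter, 2 were higher in DZ cells and 0 lower (13.3% against 23.2% of all genes), with a median difference of -0.12 against -0.14 for all genes. With the library number as a block the calls turned to 1 higher and 4 lower, in a fit in which 33.7% of all genes passed. Of those 4, Cacna1h, Cacna1c and Asic1 had DZ means of 0.517, 0.56 and 0.922 FPKM and entered the test mainly through SFZ libraries, where they were higher, so these calls follow in part from the filter. Lrrc8c, a subunit of volume-regulated anion channels, rose from 12.5 ± 3.56 to 19.8 ± 3.21 FPKM (difference 0.65, SE 0.17, adjusted p = 0.0199 by limma). Tmem63b, an osmosensitive cation channel, rose by 0.25 (SE 0.08, adjusted p = 0.041). Both calls held under quantile normalization and median-of-ratios factors, while with the block Lrrc8c kept its call and Tmem63b did not (adjusted p = 0.0572). The gap junction gene Gja1 was the most abundant of the list, at 88.6 FPKM over all libraries, and differed by -0.16 without passing. Panx3, a pannexin channel of prehypertrophic chondrocytes, was next at 52.8 FPKM with a difference of 0.92 (SE 0.48, adjusted p = 0.189), and the stretch-sensitive potassium channel gene Kcnk2 had the lowest difference, -0.75 (SE 0.26, adjusted p = 0.0553, and 0.0126 with the block). The other vanilloid receptors on the list were scarce, Trpv1 at 0.00583 and Trpv2 at 0.586 FPKM on average over all libraries. Further members of that family were not examined.

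Mdfi and Mdfic encode MyoD family inhibitor proteins, and MDFIC is an auxiliary subunit of PIEZO channels. Mdfi was at 13.17 to 37.78 FPKM in SFZ libraries (median 19.4) and at 32.33 to 102.48 in DZ libraries (median 55.9), and 5 of 6 DZ libraries were above all SFZ libraries. It was thus 2.43-fold higher in DZ cells (difference 1.26, SE 0.30, adjusted p = 0.0132 by limma), where Piezo1 was lower. Mdfic was at 27.1 ± 4.01 FPKM in SFZ and 21.9 ± 3.55 in DZ cells, a difference of -0.29 that did not pass (adjusted p = 0.11) except with the block (adjusted p = 0.0327). Tmem150c and Stoml3, also linked to mechanically gated currents, averaged 0.0792 and 0.00667 FPKM and were not tested. Of 8 other genes of the polycystin family 7 were in the deposited values and only Pkd2l2 passed the filter, at 2.01 FPKM with a difference of -0.25 (adjusted p = 0.121).

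Pkd2 and Ift88 act in the cilium, so its other components were examined by machine. The IFT-B, IFT-A, motor, BBSome and transition zone lists together held 56 genes, of which 55 were tested between zones. In DZ cells 2 were higher and 9 lower, which is 20.0% against 23.2% of all genes, with a median difference of -0.04. These calls changed with the scaling. After quantile normalization 4 were higher and 1 lower (9.09% against 17.9% of all genes), with a median of 0.17. With median-of-ratios factors 2 were higher and 2 lower (7.27% against 18% of all genes), with a median of 0.09. With the library number as a block 2 were higher and 12 lower (25.5% against 33.7% of all genes). Of these lists, 0 genes passed between genotypes in either zone, and 0 were at an unadjusted p under 0.05 (limma), where 0% of all genes passed in either zone and 34 in SFZ and 404 in DZ cells were at that unadjusted p.

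Among the 16 other IFT-B genes tested, Ift20, whose product also works at the Golgi, was the most abundant at 68.4 FPKM and rose in DZ cells by 0.41 (SE 0.10, adjusted p = 0.0133 by limma), under both other scalings as well. The next in level was Hspb11, at 38.3 FPKM with a difference of 0.28 that did not pass. Ift27, Ift74 and Cluap1 fell by 0.39, 0.34 and 0.24, of which only Ift27 still passed with median-of-ratios factors and none after quantile normalization. Ttc26 and Ttc30a1 passed as higher after quantile normalization alone, at 0.35 and 0.34 (adjusted p = 0.0148 and 0.0306 by limma). Of 6 IFT-A genes, which carry cargo back down, Ttc21b and Ift140 fell by 0.40 and 0.26, while Ift43 and Wdr35, the most abundant at 23.9 and 15.2 FPKM, differed by -0.04 and 0.07. Of 7 tested motor genes, Kifap3 and Kif3a of the kinesin-2 that moves IFT trains fell by 0.72 and 0.31, and the most abundant, Dync2li1 and Wdr34, differed by -0.03 and -0.05, with Kif3b the highest difference at -0.01. Ttc8 was the 1 of 9 BBSome genes that passed, falling by 0.30. Arl6 and Bbip1, the highest in level, were at -0.24 and 0.02, and Bbs9 at 0.04. Of the 16 IFT-B genes 1 was called higher and 3 lower. The called share was 33.3% for IFT-A, 28.6% for motor and 11.1% for BBSome genes, against 23.2% of all genes. Whether any of these small lists departs from the share of all genes was not tested. The IFT-A, motor and BBSome calls were each lost under both other scalings, although Kifap3 kept most of its difference, at -0.61 with median-of-ratios factors and -0.48 after quantile normalization.

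In the transition zone, the gate at the cilium's base, 2 of 17 genes passed (11.8% against 23.2% of all genes). Ahi1 rose from 9.45 ± 2.21 to 16.0 ± 2.79 FPKM, with all 6 DZ libraries above all SFZ libraries (difference 0.71, SE 0.16, adjusted p = 0.00963 by limma), and Cc2d2a fell by 0.50 (adjusted p = 0.00794). Both passed under the other scalings, although Cc2d2a was then at -0.27 after quantile normalization (adjusted p = 0.0431), and Ahi1 was also the most abundant gene of the list, at 12.7 FPKM over all libraries.

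The list with the most calls before any other scaling was that of the ciliary membrane and hedgehog signalling, with 6 of 15 tested genes lower in DZ cells and 0 higher (40.0% against 23.2% of all genes), and a median of -0.29. The share was 20.0% against 17.9% of all genes after quantile normalization, with a median of -0.10. It was 26.7% against 18% of all genes with median-of-ratios factors. Inpp5e, the phosphatase that keeps ciliary membrane lipids distinct, fell from 8.04 ± 0.594 to 5.65 ± 0.555 FPKM (difference -0.44, SE 0.06, adjusted p = 0.000816 by limma), and all 6 DZ libraries were below all SFZ libraries. Evc and Evc2, which form a complex with Smoothened at the cilium's base, fell by 0.80 and 0.41. Hhip, a hedgehog-binding decoy receptor, fell by 1.07 from 1.93 ± 1.43 to 0.272 ± 0.176 FPKM. It met the filter through SFZ libraries alone, so its call follows in part from the filter and leaves 5 lower genes without it. Hhip was called in the other fits too, so their shares include it. After quantile normalization only Inpp5e and Evc were called besides Hhip. Arl13b, a small GTPase of the ciliary membrane, fell by 0.29 and Gpr161, a receptor that restrains the pathway, by 0.49. Inpp5e and Evc passed under both other scalings, Gpr161 with median-of-ratios factors alone, and Arl13b and Evc2 under neither. The most abundant genes of the list were Smo at 78.9 and Arl3 at 57.6 FPKM, with differences of -0.18 and 0.13 that did not pass. Ihh had the highest difference, 0.69 (SE 0.38, adjusted p = 0.207). Ptch1 and Gli1, which the pathway itself induces, stood at 0.62 and -0.34 and did not pass.

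Nedd9, a scaffold that activates Aurora A when cilia are resorbed, was the 1 of 7 disassembly genes that passed (14.3% against 23.2% of all genes). It rose from 20.7 ± 1.04 to 28.9 ± 5.05 FPKM in DZ cells, without overlap (difference 0.45, SE 0.09, adjusted p = 0.00753 by limma), also under both other scalings. Plk1, next in level at 21.8 FPKM, had the lowest difference of that list, -0.41 (SE 0.73). Of the RFX and FOXJ1 transcription factors, several of which drive cilium genes, 4 of 7 were tested. Of these 4 only Rfx5 passed, where 23.2% of all genes did. Rfx5, a family member known for MHC class II genes rather than cilium genes, fell by 0.38 (adjusted p = 0.0283 by limma). Its call was lost under both other scalings. Rfx7, the most abundant at 8.53 FPKM, differed by 0.04. Foxj1, needed for motile cilia, averaged 0.165 FPKM. The 5 measured markers of multiciliated cells summed to at most 2.47 FPKM in a library, with Tekt1 under 0.1 FPKM on average in every group.

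**Figure D4:**
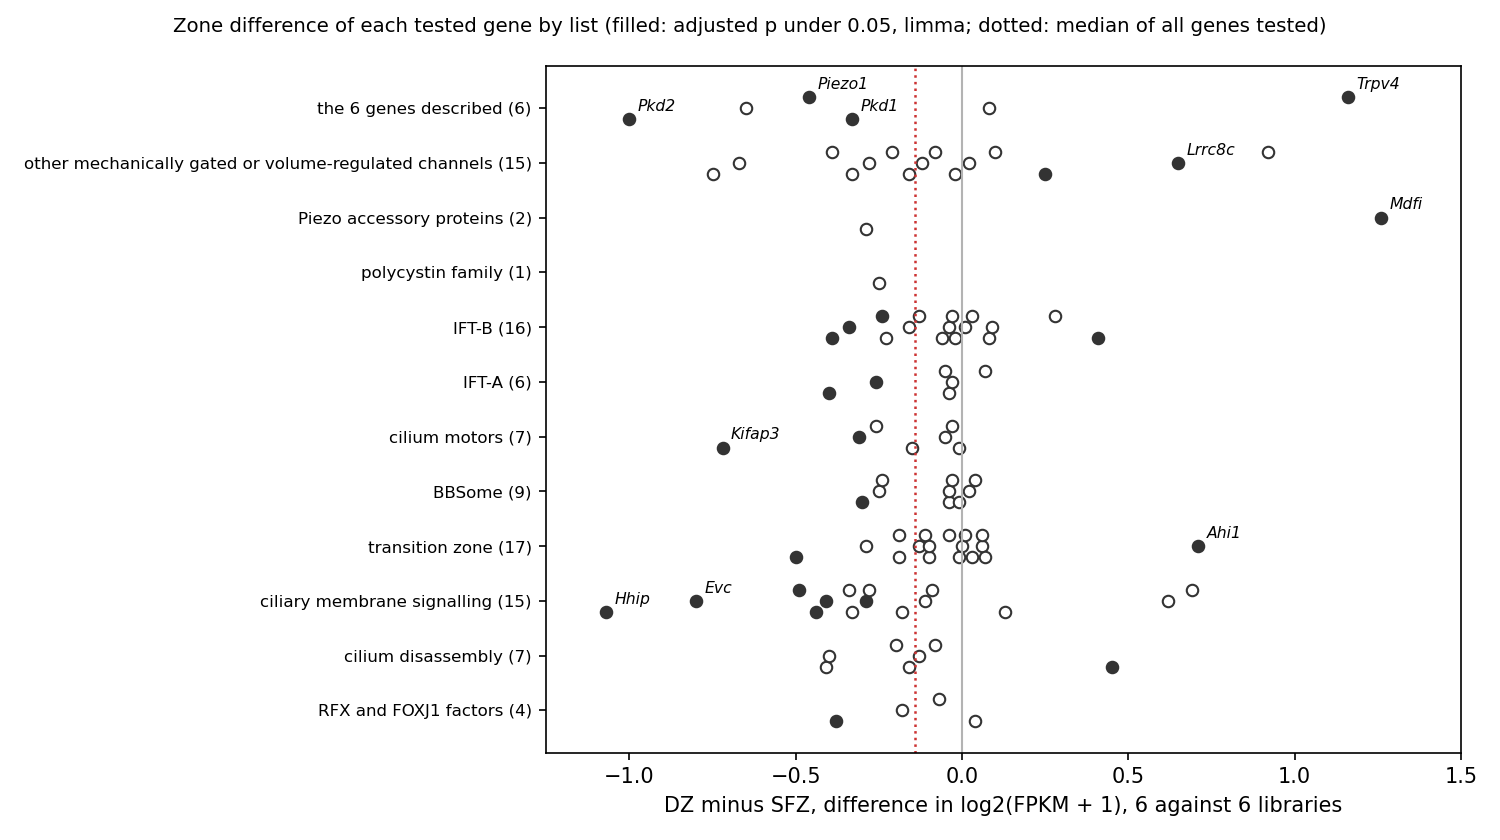
Zone difference in log2(FPKM + 1) (horizontal axis, DZ minus SFZ) of every tested gene of the 6 described and of the 11 other lists, filled where the adjusted p was under 0.05 by limma. The dotted line is the median of all genes, -0.14. Trpv4 and Mdfi stand furthest to the right, and Pkd2, Evc and Hhip to the left.

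For each gene the 3 genes with the most similar pattern over the 12 libraries are named as a description. The points share libraries and the difference between zones, so Pearson's r is followed by its value after each group's mean was removed. For Trpv4 these were Slc35d1 (r = 0.989, then 0.989), a nucleotide-sugar transporter used in chondroitin sulfate synthesis, Steap1 (0.983, then 0.966) and Fry (0.982, then 0.958). For Piezo1 they were Klhl29 (0.95, then 0.959), Nagpa (0.938, then 0.782) and Rnf187 (0.936, then 0.803). For Piezo2 they were the growth factor receptor gene Pdgfra (0.959, then 0.955), Sos1 (0.954, then 0.935) and Robo1 (0.953, then 0.969).

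For Pkd1 the most similar were the BMP receptor gene Acvr1 (r = 0.972, then 0.944), Palmd (0.961, then 0.951) and Fes (0.958, then 0.967). For Pkd2 they were Fam26e (0.99, then 0.946), Atf2 (0.987, then 0.936) and Sorcs2 (0.985, then 0.896). For Ift88 they were the potassium channel gene Kcnma1 (0.95, then 0.955), Kdm1b (0.94, then 0.938) and Arl14ep (0.94, then 0.934). None of the 6 genes was among the 3 most similar to another of them.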

How the data were processed

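RNA-seq of SFZ and DZ cells from R3-Cntl and R3-cKO mice was analysed, in 12 libraries. Per the study's methods and the submitters' processing notes, paired-end reads of 100 bp were aligned to mm9 with Bowtie 0.12.2. The authors deposited FPKM values that had been scaled by TMM, a unit read here from the values themselves. Every column was matched to a library and 0 were unmapped. Depth and counts are unknown.

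Differences were fitted to log2(FPKM + 1) with limma 3.58.1 in R 4.3.3, with a mean-variance trend, for genes at 1 FPKM or more in at least 3 libraries of the comparison, and Benjamini-Hochberg adjustment over all genes. The zone difference over both genotypes had genotype as a second term. Single genes were compared by exact two-sided permutation tests of the same log2 values (Python 3.11.15, NumPy 2.4.6, pandas 2.3.3). The study's methods name quantile normalization, tried here as an alternative. The others were median-of-ratios size factors, pseudocounts of 0.1 and 5, no filter, a mean of at least 5 FPKM, the number as a block, 1 model of all 12 libraries and leaving out each library. The fits were run on simulated data with independent noise and a capped spread. That check does not cover the larger spread or the shared deviations of these libraries.

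Named genes are the 6, Runx3, and from each list those past an adjusted p of 0.05, the 2 highest in level and the largest difference in each direction. A gene that this rule names is not reported here. Other genes were chosen after their values were seen, as were the searches of promoters. The members and lists were chosen with earlier results of these data known.

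Same-numbered libraries were checked for pairing by correlating deviations from group means over 11359 genes. The correlations were 0.65, 0.78 and 0.69 between genotypes in DZ cells and 0.42, 0.78 and 0.65 between zones in R3-cKO, which pair the numbers there. They were 0.79, -0.09 and -0.42 between genotypes in SFZ cells and 0.58, 0.11 and -0.15 between zones in R3-Cntl, which do not.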

Additional observations from a re-analysis of the deposited data

How the results depend on the processing

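Of 560 alternative fits of the 6 genes, 509 kept direction and side of the threshold, 36 changed sign, 11 lost the call and 4 gained it. The signs that changed were of differences that passed in no fit. The cause of each change was not tested. With no depth, only the spread between libraries limits these values, and 3 against 3 libraries cannot reach an exact p under 0.1.

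Between zones over both genotypes, Trpv4, Piezo1 and Pkd2 passed under every alternative run, with adjusted p of 0.00598 to 0.0421, 0.00813 to 0.0469 and 0.00102 to 0.00395 by limma. Pkd1 was at -0.17 after quantile normalization, -0.19 with median-of-ratios factors and -0.33 without a filter (adjusted p = 0.05, just above the threshold), and did not pass. It lost the call in 8 of 12 fits that left out a library (-0.38 to -0.25), those without R3-Cntl SFZ 1, 2 or 3, R3-cKO SFZ 1 or 3, R3-Cntl DZ 1 or R3-cKO DZ 1 or 3. Leaving out 1 library gave -0.84 to -0.45 for Piezo2 and -0.02 to 0.19 for Ift88 between zones. Genes called numbered 1804 at a mean of at least 5 FPKM and 1624 to 2899 without 1 library. The mean of at least 5 FPKM left no Piezo2 value here, between zones in R3-cKO, between genotypes in DZ cells or for the interaction.

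The 140 genes called between zones in R3-Cntl became 4 after quantile normalization, 18 with median-of-ratios factors, 88 and 29 with pseudocounts of 0.1 and 5, 0 without a filter, 10 at a mean of at least 5 FPKM, 798 in 1 model of all libraries and 0 to 505 without 1 library. The 2 in R3-cKO became 1 with either pseudocount, 7 without a filter, 1 at a mean of at least 5 FPKM, 165 in 1 model and 0 to 5 without 1 library. In that model Pkd2 passed in R3-Cntl (-1.07, adjusted p = 0.0173) and in R3-cKO (-0.94, adjusted p = 0.0462).

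When the replicate number was added as a block, 831 genes passed between zones in R3-Cntl, 352 in R3-cKO and 3965 over both genotypes, and Pkd2 passed in R3-Cntl (-1.07, adjusted p = 0.0349). The block changed no other call of the 6 genes. Of the other channels and Piezo partners, Tmem63b lost its call with it (adjusted p = 0.0572) and Kcnk2, Cacna1h, Cacna1c, Asic1 and Mdfic gained one, with adjusted p of 0.0126, 0.0142, 0.0212, 0.0298 and 0.0327. The DZ means of Cacna1h, Cacna1c and Asic1 were under 1 FPKM, so their calls follow in part from the filter. Of the cilium lists, Traf3ip1, Bbs7, B9d2, Sufu and Gli3 gained a call as lower, with adjusted p of 0.0297, 0.0291, 0.0314, 0.03 and 0.026. Between genotypes in SFZ cells and between zones in R3-Cntl the numbers do not pair the libraries. There R3-Cntl SFZ 3 correlated best with libraries of number 2 (0.69 in R3-cKO SFZ and 0.58 in R3-Cntl DZ) and R3-Cntl SFZ 2 with those of number 3 (0.45 and 0.38). What the block adjusts for in fits that hold R3-Cntl SFZ was not tested.

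Ift88 between zones in R3-cKO changed sign after quantile normalization (0.04) and median-of-ratios factors (0.01), and without 1 library it ranged from -0.20 to 0.07. The interaction of Piezo1 turned to 0.00 under both scalings and that of Piezo2 to 0.00 with a pseudocount of 0.1. Without 1 library, interactions ranged from -0.08 to 0.25 for Piezo1, -0.46 to 0.42 for Piezo2, -0.07 to 0.30 for Pkd2 and -0.50 to 0.29 for Trpv4. That of Ift88 kept its sign, at -0.64 to -0.17. Genotype effects ranged in SFZ cells from -0.16 to 0.32 for Ift88, -0.18 to 0.02 for Piezo2, 0.00 to 0.17 for Pkd1, -0.06 to 0.19 for Pkd2 and -0.42 to 0.37 for Trpv4, and in DZ cells from -0.56 to 0.32 for Piezo2, 0.00 to 0.37 for Pkd2 and -0.38 to 0.10 for Trpv4. All 4 ratios between genes kept direction and call with 1 added to both values and without any 1 library, though Piezo1/Piezo2, which did not pass, ranged from 0.09 to 0.67 without 1 library and was 0.19 with 1 added.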
